A study of Homo sapiens with 12 samples.

Results

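The genes described here were the 200 most abundant members of the ZNF family, the human genes whose symbol is ZNF followed by a number, in RNA-seq libraries of T47D breast cancer cells. Within this family they were selected on their mean level alone. In the count table, 527 of 25370 genes carried such a symbol, and the 200 with the highest mean CPM (counts scaled to a common total of reads on genes) over all 12 libraries were kept. The level of a member is therefore given as a description and never tested. Differences between treatments were no part of this rule, although it was set with earlier results of these data known. The last members kept were ZNF10 at 18.2 and ZNF500 at 18.1 CPM, and the first left out were ZNF48 at 18.1 and ZNF254 at 18.0 CPM, so the border fell between genes of almost the same level. All 200 entered the tests, and all averaged at least 3 log2 CPM.

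Most ZNF proteins carry an array of C2H2 zinc fingers, short folds in which a pair of cysteines and a pair of histidines hold a zinc ion and a helix reads a few bases of DNA. In the KRAB zinc finger proteins the array follows a KRAB domain, which recruits the corepressor TRIM28 and through it the histone methyltransferase SETDB1 and HP1 proteins, and many of these proteins silence retroelements. Other ZNF genes encode promoter-binding activators, members of chromatin complexes, RNA-binding proteins or factors tied to the estrogen receptor in breast tumours. KRAB zinc finger genes lie largely in clusters on chromosome 19, where they arose by repeated duplication.

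T47D is an established line of luminal, estrogen receptor-positive breast cancer cells. Per the labels the cells were kept in medium with charcoal-stripped serum and then without serum, after which they received vehicle, anastrozole at 10 nM, E2 (17β-estradiol) at 0.1 nM, or both agents at these doses, with 3 libraries a group lettered a to c. Anastrozole inhibits aromatase, the enzyme that makes estrogens from androgens, and the design asks how the drug acts on its own and together with E2. The labels give 12 h of treatment, while the study's methods state a longer time, and they do not say whether the letters stand for separate cultures, so p-values measure the spread between these libraries, which may be technical.

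Reads counted on genes ranged from 9914253 to 17009776 over the libraries, which puts 3 counts, the least taken as detected, at 0.176 to 0.303 CPM. All 10 luminal markers examined, ESR1 and KRT8 among them, were above 1 CPM, at a summed 11552 to 12753 CPM per library. The basal keratin KRT5 stood at 0 to 0.0884 CPM and the T-cell gene CD3D at 0 in every library. None of 3 immune and 2 endothelial genes averaged above 1 CPM, and of 3 basal and 4 fibroblast genes only TP63 and COL1A1 did. TP63 was at 1.06 to 2.34 CPM, but COL1A1 was at 80.1 to 100.3 CPM. A bulk library cannot tell fewer cells that express a gene from less RNA per cell. The libraries differed in how level depended on the GC content of a gene's exons. Over the 11013 genes whose average reached 3 log2 CPM, the rank correlation of GC content with a library's deviation from the gene means was 0.464 in vehicle a, 0.0582 in b and 0.442 in c, was -0.607 and -0.371 in anastrozole a and b but 0.257 in anastrozole c, was between -0.499 and -0.323 in E2, and between 0.339 and 0.427 in anastrozole plus E2. Anastrozole c thus stood apart from its group, and so did vehicle b to a lesser degree. For this reason each comparison is given as counted and with a GC offset, in which the smooth trend of each library against GC content was removed before the test. Because the trends differed between treatment groups, the offset also removes any treatment change that follows GC content. Such a change cannot be told apart from a trend of the libraries here, so a call lost with the offset is not thereby shown to be false. Results that rest on anastrozole c are given without that library as well.

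The members were poorer in GC than other expressed genes. Their exons held a median of 43.4% GC, with a range from 32.2% for ZNF680 to 66.5% for ZNF467, against 47.7% over 10625 other genes of at least 3 log2 CPM. Of the 200, 71 lay on chromosome 19. A coding sequence could be translated for 196, of which 89 matched the KRAB pattern, and these had a median of 12 C2H2 fingers against 8 in the others. The KRAB pattern asked for exact residues and misses some genes known to hold the domain, such as ZNF224. The KRAB group had a median GC content of 42.6% and the others 45.2%. ZNF142 with 36 matches, ZNF462 with 33 and ZNF91, a repressor of SVA retroelements, with 31 had the longest arrays, while 7 members, ZNF703 and ZNF330 among them, had no match to the finger pattern. Exons of 28 members lie over more than 10% of their length opposite a gene of the other strand, ZNF770 and ZNF740 among those named here. The strand setting of the counting is not given in the sources used here. Reads of the 2 genes may therefore be mixed or may have been set aside as ambiguous.

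The span of base composition is shown by a stretch of 168 coding bases from each of a pair of members, ZNF267 and ZNF316, of which the first was called higher and the second lower with anastrozole as counted. Both stretches encode fingers with their linkers and lie in a coding exon (GRCh37), at chr16:31926777-31926944 on the plus strand for ZNF267 and at chr7:6692413-6692580 on the plus strand for ZNF316. The codons of the linker between fingers, Thr-Gly-Glu-Lys/Arg-Pro, are in capitals. The ZNF267 stretch held 36.3% GC and the ZNF316 stretch 69.6%.
ZNF267: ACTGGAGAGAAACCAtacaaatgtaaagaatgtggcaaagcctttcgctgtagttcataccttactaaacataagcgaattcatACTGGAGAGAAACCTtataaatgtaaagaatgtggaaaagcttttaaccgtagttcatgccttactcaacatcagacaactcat
ZNF316: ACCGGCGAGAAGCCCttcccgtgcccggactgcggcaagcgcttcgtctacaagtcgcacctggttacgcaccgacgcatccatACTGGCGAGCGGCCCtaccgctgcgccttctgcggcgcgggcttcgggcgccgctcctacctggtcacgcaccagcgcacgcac
Both stretches carry the linker codons 2 times.

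Promoters were read for the 171 members with an entry in RefSeq's promoter table (GRCh38.p14), each from 250 bases before to 50 after the start site. No member promoter held the full estrogen response element GGTCANNNTGACC, which was present in 20 of 35116 promoters (0.0570%). Its half-site, GGTCA on either strand, was present in 66 of 171 member promoters (38.6%) and in 37.4% of all. Median promoter GC was 62.7% in the members and 58.7% over all. Absence of these letters in the window says nothing about the receptor's binding elsewhere. The promoters of ZNF12, at chr7:6706898-6707197 on the minus strand, and ZNF217, at chr20:53593790-53594089 on the minus strand, are shown because both genes were higher with anastrozole and with E2 as counted. With the GC offset ZNF217 did not pass with E2 (edgeR adjusted p = 0.118). The half-site is in capitals where present.
ZNF12: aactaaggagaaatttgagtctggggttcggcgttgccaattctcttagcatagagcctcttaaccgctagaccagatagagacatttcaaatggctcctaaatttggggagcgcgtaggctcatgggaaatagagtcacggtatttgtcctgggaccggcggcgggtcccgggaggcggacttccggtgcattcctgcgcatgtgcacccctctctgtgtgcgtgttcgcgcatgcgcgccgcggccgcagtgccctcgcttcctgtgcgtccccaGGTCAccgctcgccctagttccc
ZNF217: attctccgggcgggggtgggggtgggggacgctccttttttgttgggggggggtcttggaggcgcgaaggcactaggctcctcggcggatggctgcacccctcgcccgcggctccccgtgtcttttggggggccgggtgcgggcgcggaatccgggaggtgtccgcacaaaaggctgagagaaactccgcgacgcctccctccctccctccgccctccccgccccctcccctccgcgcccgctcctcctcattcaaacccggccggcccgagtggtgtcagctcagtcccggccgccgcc
The ZNF12 window holds 1 half-site, after the start site, and the ZNF217 window none.

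Levels among members spanned from 18.1 to 331 CPM, with a median of 34.5. The members together took between 0.928% and 0.988% of counted reads in each library, on average 0.943% ± 0.0166 (SD, n = 3) in vehicle, 0.983% ± 0.00441 in anastrozole, 0.960% ± 0.00547 in E2 and 0.946% ± 0.0126 in anastrozole plus E2. ZNF664 (ENSG00000179195) was the most abundant. ZNF664 stood at 320.2, 334 and 322 CPM in the vehicle libraries a, b and c, with all TMM-normalised values of the gene between 317 and 355 CPM. Per kilobase of annotated exon, which allows genes to be compared, ZNF664 reached 52.3 CPM per kb, ZNF217, an oncogene of chromosome 20q13 that is amplified in breast cancer, 47.6, ZNF385A, an RNA-binding p53 cofactor, 35.4, and ZNF26, the lowest, 1.21. The median member stood at 5.37 CPM per kb. Replicates were close, with a median coefficient of variation within groups of 5.07% over the members.

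**Figure D1:**
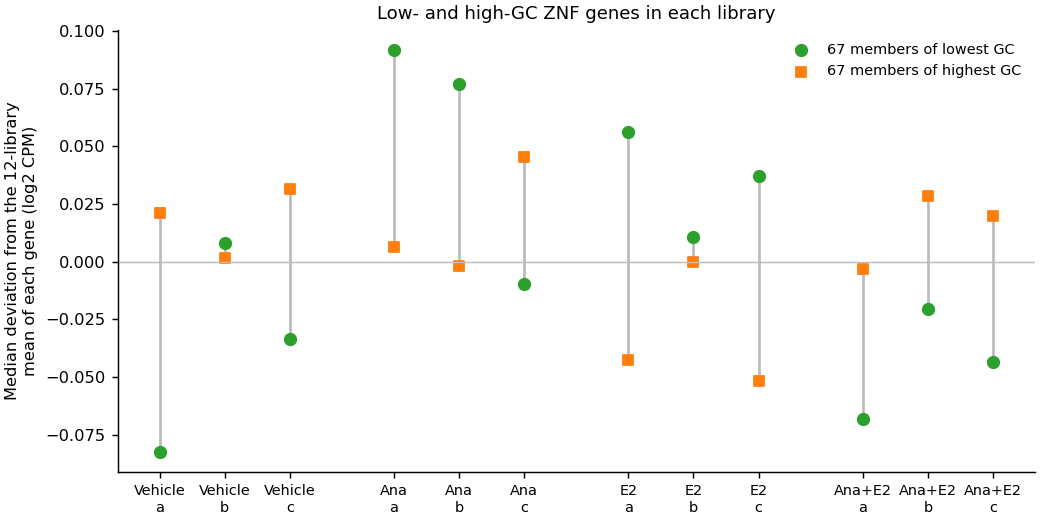
Median deviation of the 67 members of lowest exonic GC content (circles, up to 41.1%) and the 67 of highest (squares, from 46.1%) from each gene's mean over the 12 libraries, in log2 CPM, for each library. Low-GC members lay above high-GC members in anastrozole a and b and in E2 a and c, almost level with them in vehicle b and E2 b, and below them in vehicle a and c, anastrozole c and all anastrozole plus E2 libraries.

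Anastrozole against vehicle asks what the drug did without added E2. Among the members, 7 were higher and 1 lower past an adjusted p of 0.05 (quasi-likelihood test of edgeR, Benjamini-Hochberg adjustment over 21132 genes), which is 4.0% of the members. Over all genes tested 3.67% passed, 1.4% higher and 2.27% lower, and 6.53% of genes of at least 3 log2 CPM did. The median member had a log2 fold change of 0.07 against 0.00 over all genes, and 147 of 200 had a positive value. The genes that rose were ZNF217, ZNF12, ZNF322, ZNF558, ZNF197, ZNF441 and ZNF267, and the gene that fell was ZNF316.

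ZNF217 (ENSG00000171940; GRCh37 chr20:52183610-52226446, minus strand) encodes a repressor that works with CtBP and CoREST. Its normalised levels were 274, 287 and 269 CPM in vehicle against 324, 328 and 314 CPM in anastrozole, giving libraries a, b and c in order here and for each gene that follows. Every anastrozole library was above every vehicle library. The means were 277 ± 9.31 and 322 ± 6.97 CPM (SD, n = 3), a log2 fold change of 0.22 ± 0.04 (SE; edgeR adjusted p = 0.000244). ZNF12, a KRAB repressor of chr7:6728064-6746578, minus strand, was at 81.2, 93.1 and 90.2 CPM in vehicle and 103, 108 and 103 in anastrozole, again without overlap, with a log2 fold change of 0.24 ± 0.05 (edgeR adjusted p = 0.00103). The largest rise was that of the KRAB gene ZNF267 (chr16:31885128-31928678, plus strand), from 16.99, 15.97 and 17.2 to 20.6, 22.5 and 24.3 CPM, a log2 fold change of 0.42 ± 0.10 (edgeR adjusted p = 0.00228).

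The next in size were ZNF441 at 0.34 ± 0.10, ZNF197, known as a KRAB partner of the VHL protein, at 0.28 ± 0.07, ZNF558 at 0.25 ± 0.07 and ZNF322 at 0.25 ± 0.06 on the log2 scale, with edgeR adjusted p of 0.0205, 0.00477, 0.00840 and 0.00798. ZNF558 was at 47.1, 46.2 and 43.4 CPM in vehicle and 54.4, 54.5 and 54.3 in anastrozole. For ZNF322, 19.6% of its 100-base exon windows also occur in its pseudogene ZNF322P1, so its count is uncertain. ZNF316, with 62.6% GC, went from 84.1, 82.04 and 88.1 CPM to 64.6, 77.9 and 81.2, a log2 fold change of -0.19 ± 0.06 (edgeR adjusted p = 0.0319), and anastrozole a was the lowest of these libraries. Without that library ZNF316 was at -0.09 (edgeR adjusted p = 0.664) and was no longer called. The values of ZNF441 and ZNF322 were close to those with all libraries, at 0.34 (edgeR adjusted p = 0.0822) and 0.22 (edgeR adjusted p = 0.114), but did not pass.

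The fold changes of the 200 members ran against GC content, with a rank correlation of -0.43. The median was 0.11 in the 67 members of lowest GC content (the low-GC group) and 0.01 in the 67 of highest (the high-GC group). It was 0.07 in other expressed genes of up to 41.1% GC and -0.06 in those from 46.1%. The latter set has no upper limit and reaches 73.8% GC, against 66.5% in the members, so it is not matched in GC. With the GC offset the correlation was 0.02, the member median 0.05, and again 7 members were higher and 1 lower (2.9% of all genes passed). ZNF217 (0.18, edgeR adjusted p = 1.40e-05), ZNF12 (0.20), ZNF322 (0.19), ZNF558 (0.22), ZNF197 (0.23) and ZNF267 (0.36) passed in both fits. ZNF441 at 0.28 (edgeR adjusted p = 0.0712) and ZNF316 at -0.07 (edgeR adjusted p = 0.585) no longer did, while ZNF395, a factor linked to hypoxia, at 0.16 and ZNF207, a mitotic spindle factor that binds BUB3, at -0.11 passed with the offset. Without anastrozole c 25 members (12.5%) and 7.81% of all genes passed as counted, among the members ZNF217 at 0.23 (edgeR adjusted p = 2.95e-06) and ZNF267 at 0.36 (edgeR adjusted p = 0.0120), while ZNF441 at 0.30 (edgeR adjusted p = 0.0504) did not. Leaving out vehicle a or anastrozole a left 5 members (1.36% and 1.16% of all genes), and vehicle c or anastrozole b 4 (0.904% and 1.42%). Limma-voom passed 0 members and 0.0710% of all genes, and DESeq2 passed 4 of the 111 members and 3.44% of all genes to which it gave an adjusted p.

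**Figure D2:**
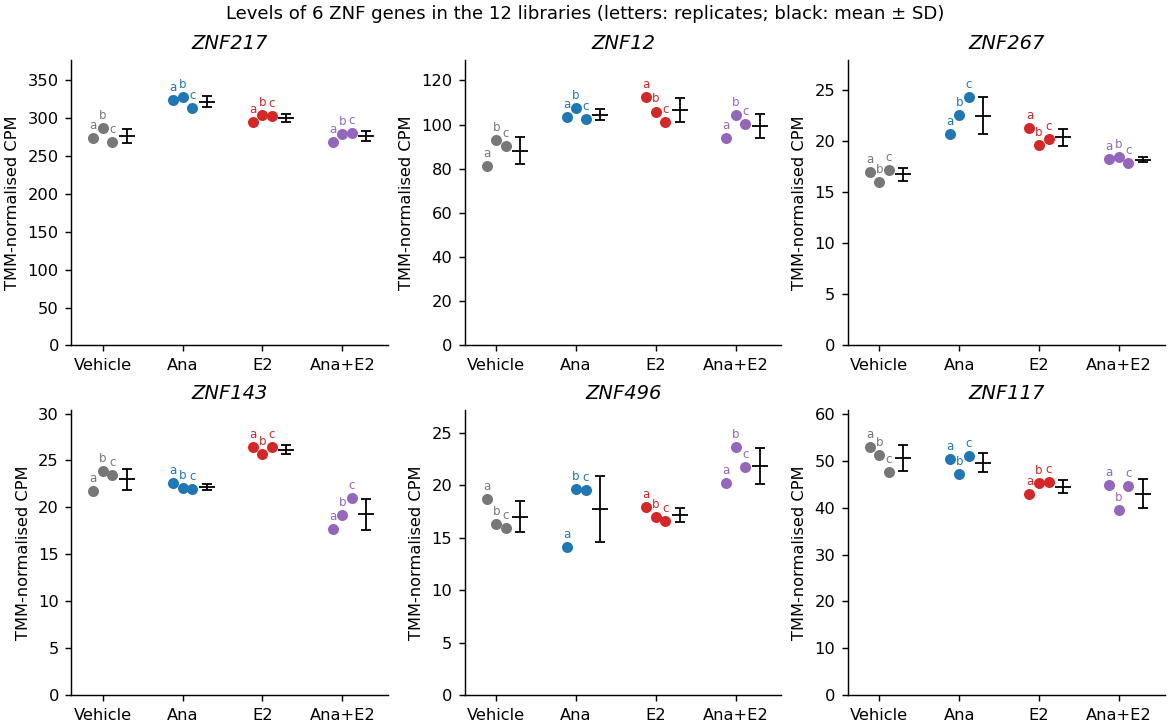
TMM-normalised CPM of 6 members in each library (points lettered by replicate) with the group mean ± SD (black, n = 3), on axes from 0. ZNF217, ZNF12 and ZNF267 were higher in every anastrozole and E2 library than in any vehicle library, and ZNF143 was lower in every anastrozole plus E2 library than in any E2 library.

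As counted with all libraries, E2 against vehicle gave the largest number of changed members among the comparisons of a pair of groups. With the GC offset and a block for the replicate letter it passed 18 members and 7.13% of all genes, and the combination against vehicle 22 and 7.53%. In all 26 members rose and 5 fell, 15.5% of the 200, against 12% of all genes tested (6.06% higher, 5.95% lower), 21.5% of genes of at least 3 log2 CPM and 16.01% of other expressed genes within the members' middle GC range. The member median was 0.02, and 0.04 without vehicle b. The genes with the largest rises were ZNF25, ZNF441, ZNF585A, ZNF330 and ZNF267, and those that fell were ZNF512B, ZNF335, ZNF76, ZNF385A and ZNF117.

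ZNF25 (chr10:38238501-38265575, minus strand) was at 16.6, 18.6 and 17.1 CPM in vehicle and 21.6, 23.2 and 25.1 in E2, without overlap, a log2 fold change of 0.42 ± 0.09 (edgeR adjusted p = 6.68e-05). ZNF441, a KRAB gene of chromosome 19, rose from 19.01, 18.6 and 15.7 CPM to 23.4, 21.7 and 23.05, by 0.35 ± 0.09 (edgeR adjusted p = 0.00125). ZNF330 encodes a nucleolar protein and was at 25.6, 26.5 and 29.6 CPM in vehicle and 35.3, 32.8 and 32.7 in E2, a difference of 0.30 ± 0.07 (edgeR adjusted p = 0.000531). For ZNF585A the change was 0.32 ± 0.09, with 5.90% of its exon windows shared with its neighbour ZNF585B. ZNF12 stood at 112, 106 and 101 CPM in E2, all above the vehicle libraries, with a log2 fold change of 0.27 ± 0.04 (edgeR adjusted p = 1.17e-07). ZNF292, a long protein described as a tumour suppressor, was at 106, 112 and 108 CPM in vehicle and 122, 127 and 140.2 in E2, a change of 0.26 ± 0.04 (edgeR adjusted p = 3.62e-08). ZNF217 stood at 295, 304 and 303 CPM in E2, above all vehicle libraries, a log2 fold change of 0.12 ± 0.03 (edgeR adjusted p = 0.00602).

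Among the genes that fell, ZNF512B, a partner of the NuRD complex, was at 129.7, 128 and 132 CPM in vehicle and 108, 111 and 110.0 in E2, a log2 fold change of -0.24 ± 0.04 (edgeR adjusted p = 4.47e-07). ZNF335, a component of a histone H3K4 methyltransferase complex, changed by -0.23 ± 0.06, ZNF76, a paralog of the activator ZNF143, by -0.20 ± 0.06 and ZNF385A by -0.19 ± 0.04 (edgeR adjusted p = 0.00214, 0.0144 and 0.000179). These 4 held between 56.2% and 62.7% GC. ZNF117, by contrast, is among the 3 members poorest in GC, at 33.3%, and encodes a zinc finger protein of chromosome 7. Its levels were 53.1, 51.4 and 47.6 CPM in vehicle and 42.98, 45.3 and 45.5 in E2, without overlap, a log2 fold change of -0.18 ± 0.06 (edgeR adjusted p = 0.0177). ZNF117 shares 7.71% of its exon length with ERV3-1 on the same strand, and reads there may belong to either gene or have been set aside as ambiguous.

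The rank correlation of member fold changes with GC content was -0.42. In the low-GC group 16 of 67 rose and 1 fell, and in the high-GC group 1 rose and 4 fell, so 25.4% and 7.46% were called. Of other expressed genes 25.5% were called up to 41.1% GC and 22.3% from 46.1%, the latter set reaching higher GC than the members. Other expressed genes of up to 41.1% GC had a median of 0.09, close to the 0.08 of the low-GC group. With the GC offset 10 members were higher and 8 lower (7.54% of all genes), and the median was 0.00. Of the 31 members 11 passed in both fits in the same direction. ZNF25 (0.33), ZNF441 (0.26), ZNF585A (0.26), ZNF330 (0.22), ZNF184 (0.22), ZNF12 (0.21), ZNF292 (0.18), ZNF770 (0.11) and ZNF395 (0.20) remained higher, and ZNF512B (-0.11) and ZNF117 (-0.30, edgeR adjusted p = 3.84e-06) lower. ZNF267 at 0.20, ZNF217 at 0.07, ZNF335 at -0.14, ZNF76 at -0.13 and ZNF385A at -0.06 did not pass with the offset (edgeR adjusted p = 0.186, 0.118, 0.116, 0.206 and 0.399). ZNF703, at 65.2% GC, passed with the offset at 0.19 but had 0.04 ± 0.05 as counted. DESeq2 and limma-voom each passed 15 members (7.5%, against 14.8% and 6.53% of all genes given an adjusted p), and leaving out vehicle c or E2 c left 20, with 8.24% and 8.45% of all genes passing.

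**Figure D3:**
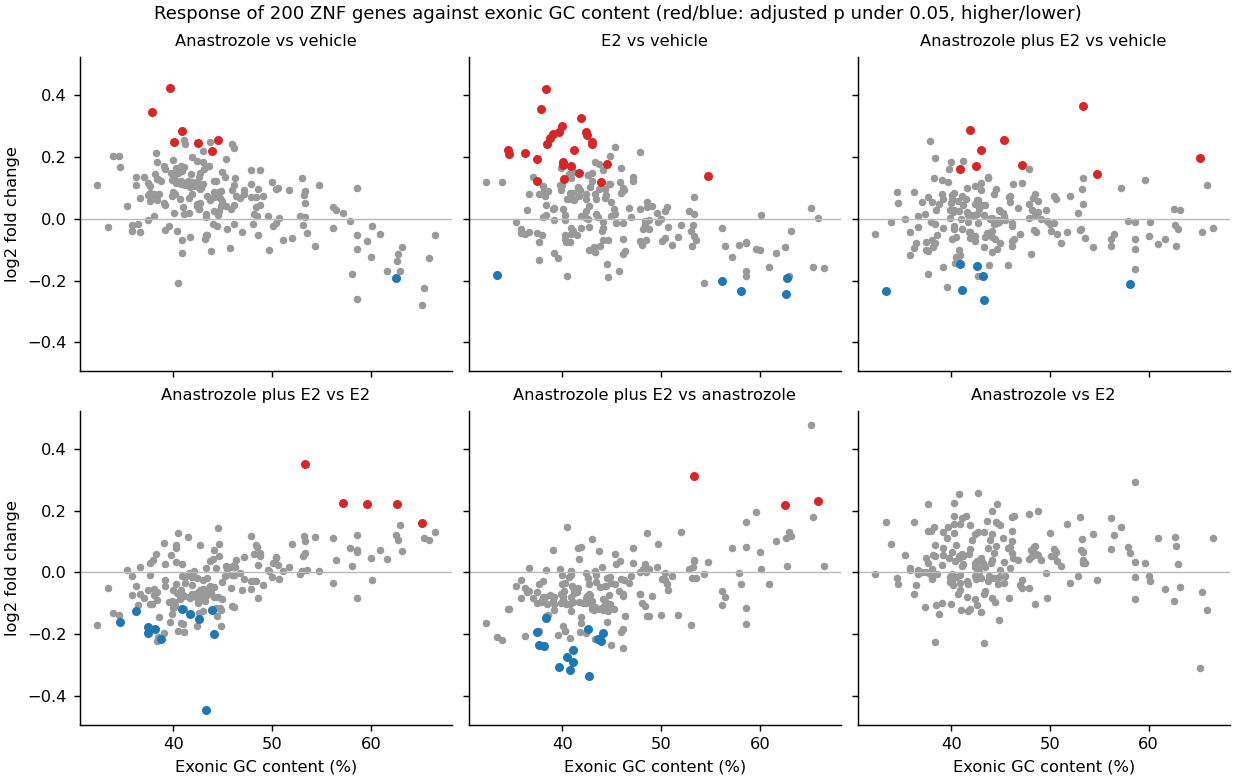
log2 fold change of each of the 200 members against the GC content of its exons (%), in the 6 comparisons of group pairs, with members past the threshold in red (higher) and blue (lower). With anastrozole and with E2 against vehicle, low-GC members lay higher than high-GC members, the slope was turned when the combination was compared with either agent alone, and it was flat in the combination against vehicle and in anastrozole against E2.

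Anastrozole plus E2 against vehicle compares groups whose libraries, vehicle b apart, had similar GC trends, and the rank correlation of member fold changes with GC content was 0.00. In this comparison 9 members rose and 7 fell (8.0%), against 5.04% of all genes (2.71% higher, 2.33% lower) and 8.39% of genes of at least 3 log2 CPM. These 16 passed again with the GC offset in the same direction, and 1 more member, ZNF440, was lower (6.02% of all genes). ZNF496, ZNF585A, ZNF627, ZNF841, ZNF703, ZNF445, ZNF12, ZNF33B and ZNF395 rose, and ZNF143, ZNF117, ZNF736, ZNF335, ZNF252P, ZNF605 and ZNF652 fell.

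ZNF496, which binds the histone methyltransferase NSD1, had the largest rise. Its levels were 18.7, 16.3 and 15.9 CPM in vehicle and 20.2, 23.7 and 21.7 in anastrozole plus E2, a log2 fold change of 0.36 ± 0.09 (edgeR adjusted p = 0.00154), and every combination library was above every vehicle library. ZNF12 was at 93.8, 104 and 100.1 CPM, also above all vehicle libraries, with a change of 0.17 ± 0.05 (edgeR adjusted p = 0.00654). ZNF445, a KRAB protein that keeps imprinted regions methylated, was at 83.2, 91.9 and 83.7 CPM in vehicle and 94.4, 102 and 95.7 in the combination, a log2 fold change of 0.17 ± 0.05 (edgeR adjusted p = 0.00637). ZNF703, a luminal breast cancer oncogene, had 87.5, 85.2 and 106 CPM in vehicle and 94.03, 110.4 and 116 in the combination, so the groups overlapped, and changed by 0.20 ± 0.06 (edgeR adjusted p = 0.0342).

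ZNF143, an activator of snRNA and many protein-coding promoters, was at 21.8, 23.9 and 23.4 CPM in vehicle and 17.6, 19.1 and 20.9 in the combination, without overlap, a log2 fold change of -0.26 ± 0.08 (edgeR adjusted p = 0.0383). ZNF117 went to 44.98, 39.5 and 44.7 CPM, below all vehicle libraries, a log2 fold change of -0.23 ± 0.06 (edgeR adjusted p = 0.00172). ZNF652, a repressor that partners CBFA2T3, was at 119.7, 135 and 126 CPM in vehicle and 112, 114 and 118 in the combination, with a change of -0.15 ± 0.04 (edgeR adjusted p = 0.0152). ZNF736, a KRAB gene of chromosome 7, was at 32.4, 32.01 and 31.97 and 25.7, 27.9 and 28.6 CPM. DESeq2 and limma-voom passed 0 members here, and 3.03% and 1.64% of all genes given an adjusted p. Leaving out combination b left 3 (3.23% of all genes), vehicle c 5 (3.44%), and vehicle a, vehicle b or combination c 9 (4.13%, 4.56% and 3.25%).

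**Figure D4:**
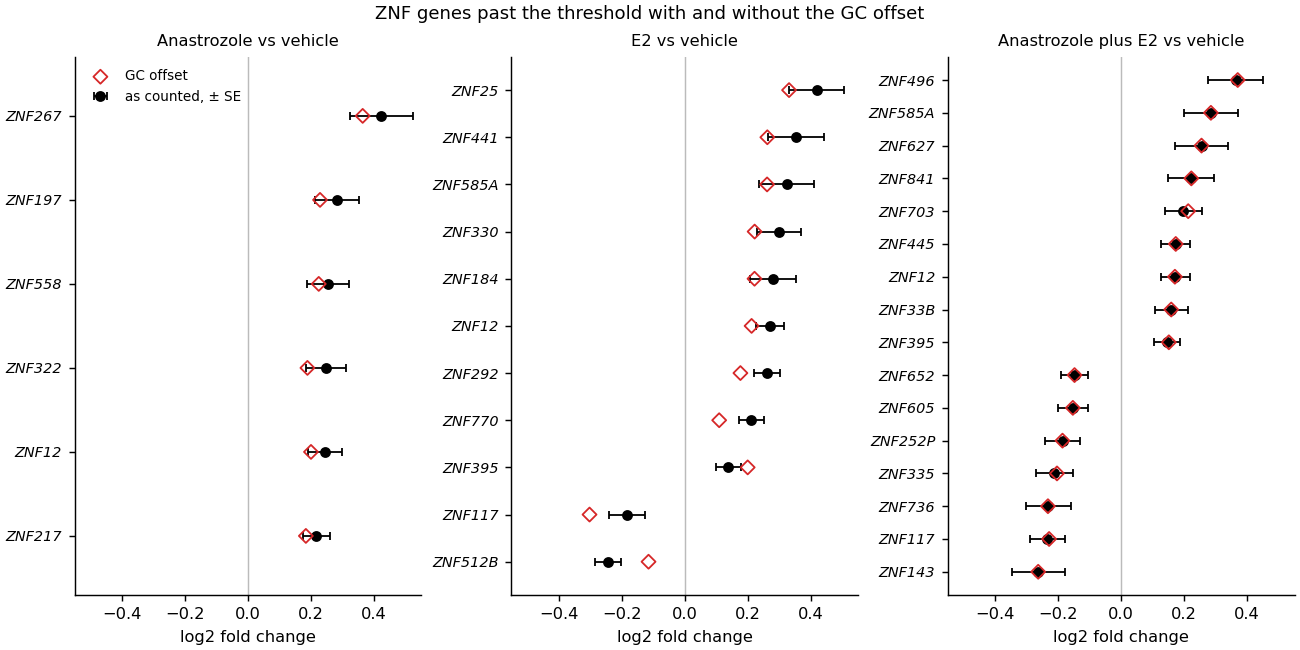
log2 fold changes against vehicle of the members past the threshold as counted (black, ± SE) and also with the GC offset (open diamonds). Of the members called, 6 with anastrozole, 11 with E2 and 16 with the combination are shown, and the offset moved the combination's values least.

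Adding anastrozole to E2 was read from anastrozole plus E2 against E2. As counted 5 members were higher and 12 lower (8.50%), against 6.74% of all genes (3.23% higher, 3.51% lower) and 12.5% of genes of at least 3 log2 CPM. ZNF143 had the largest difference, with 26.4, 25.6 and 26.4 CPM in E2 and 17.6, 19.1 and 20.9 in the combination. The groups lay far apart, with means of 26.2 ± 0.459 and 19.2 ± 1.65 CPM (SD, n = 3), and the log2 fold change was -0.45 ± 0.07 (edgeR adjusted p = 1.13e-06). ZNF143 passed under all alternatives of this comparison that gave it an adjusted p, which DESeq2 did not, and with each library left out, and with the GC offset it was at -0.40 (edgeR adjusted p = 9.50e-05). ZNF496 rose from 17.9, 17.01 and 16.6 CPM to 20.2, 23.7 and 21.7, by 0.35 ± 0.08 as counted and 0.31 with the offset (edgeR adjusted p = 0.000864 and 0.0194), and passed under the same alternatives.

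Member fold changes followed GC content in this comparison, with a rank correlation of 0.58. ZNF292 (-0.21 ± 0.04), ZNF148, which binds GC-rich promoter elements (-0.20 ± 0.04), ZNF367 (-0.20 ± 0.06) and ZNF91 (-0.18 ± 0.06) were lower, and ZNF512B (0.22 ± 0.04), ZNF629 (0.22 ± 0.06), ZNF707 (0.22 ± 0.07) and ZNF703 (0.16 ± 0.04), all over 57% GC, were higher. With the offset none of these 8 passed and their values shrank, to -0.13 for ZNF292 and 0.11 for ZNF512B. Without combination c ZNF703 was at 0.10 (edgeR adjusted p = 0.243) as counted. Members past the threshold with the offset were 2 higher and 1 lower (0.88% of all genes), with ZNF207 added at 0.12. As counted DESeq2 passed 5 of the 100 members to which it gave an adjusted p (9.79% of all such genes) and limma-voom 6 of 200 (2.13% of all genes), and leaving out E2 a or E2 c left 11, with 4.57% and 4.19% of all genes passing.

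Adding E2 to anastrozole was read from anastrozole plus E2 against anastrozole. As counted 3 members were higher and 14 lower, 8.50% of the members, against 2.9% of all genes (1.71% higher, 1.18% lower), 5.24% of genes of at least 3 log2 CPM and 4.07% of other expressed genes within the members' middle GC range. The member median was -0.07, with 151 of 200 negative. ZNF217 was at 324, 328 and 314 CPM with anastrozole and 269, 279.6 and 281 with both, without overlap, a log2 fold change of -0.22 ± 0.04 (edgeR adjusted p = 4.93e-05), which was -0.19 with the GC offset (edgeR adjusted p = 5.90e-06). Its combination libraries overlapped the vehicle libraries, and the combination did not pass against vehicle, with a log2 fold change of -0.00 ± 0.04.

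ZNF830, a factor of the spliceosome, fell from 27.3, 27.4 and 24.5 CPM to 21.8, 19.1 and 21.9, with a log2 fold change of -0.34 ± 0.08 as counted and -0.29 with the offset (edgeR adjusted p = 0.00444 and 0.0111). ZNF704 changed from 123, 125 and 119.8 to 101, 109 and 112 CPM, with log2 fold changes of -0.20 ± 0.05 and -0.16 in the same fits (edgeR adjusted p = 0.00417 and 0.00441). These 3 and no other member called as counted passed with the offset, under which 0 members were higher and 4 lower (2.02% of all genes), ZNF740 being the fourth at -0.16. ZNF793 (-0.31 ± 0.09), ZNF267 (-0.31 ± 0.09), ZNF224, a WT1 cofactor (-0.29 ± 0.09), ZNF615 (-0.27 ± 0.08), ZNF496 (0.31 ± 0.09), ZNF598, a ubiquitin ligase of collided ribosomes (0.23 ± 0.07), and ZNF316 (0.22 ± 0.05) passed only as counted. Without anastrozole c 33 members (16.5%) and 8.07% of all genes passed, and ZNF267 was at -0.24 (edgeR adjusted p = 0.0941). With any other single library left out 3 to 5 passed, anastrozole b giving 3, beside 1.11% to 1.65% of all genes, and DESeq2 passed 4 of the 47 members with an adjusted p (5.12% of all such genes) and limma-voom 1 of 200 (0.426% of all genes). Without anastrozole a the calls of ZNF830, ZNF224 and ZNF615 were lost at similar values, ZNF830 at -0.30 (edgeR adjusted p = 0.0690), and others shrank, to 0.16 (edgeR adjusted p = 0.637) for ZNF496, 0.12 (edgeR adjusted p = 0.628) for ZNF598, 0.12 (edgeR adjusted p = 0.414) for ZNF316 and -0.20 (edgeR adjusted p = 0.444) for ZNF793.

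Anastrozole against E2 passed 0 members as counted by edgeR, DESeq2 or limma-voom, against 1.33% of all genes by edgeR (0.62% higher, 0.705% lower), and 31 members were under an unadjusted p of 0.05. ZNF217 was at 322 ± 6.97 and 301 ± 5.30 CPM in these groups (SD, n = 3), a log2 fold change of 0.10 ± 0.04 (edgeR adjusted p = 0.236). With the GC offset 7 members were higher with anastrozole and 0 lower (2.44% of all genes). They were ZNF793 (0.27), ZNF830 (0.27), ZNF737 (0.25), ZNF740 (0.15), ZNF704 (0.13), ZNF217 (0.12) and ZNF24 (0.11), with edgeR adjusted p from 0.0161 to 0.0483. Without anastrozole c 6 members and 1.96% of all genes passed as counted.

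**Figure D5:**
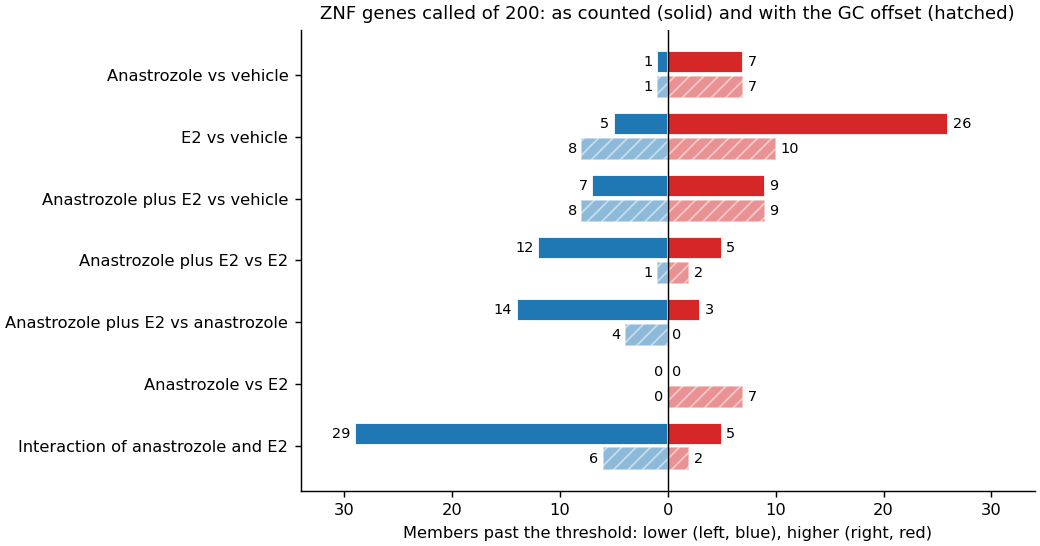
Number of the 200 members past an adjusted p of 0.05 that were lower (left) or higher (right) in each comparison, as counted (solid) and with the GC offset (hatched). The offset took the count from 31 to 18 for E2 against vehicle and from 34 to 8 for the interaction, and left 8 for anastrozole against vehicle.

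The interaction asks whether the response to anastrozole differed with E2 present, and a negative value means a lower response with E2. As counted 29 members had a negative and 5 a positive interaction, 17.0% of the members, against 10.9% of all genes (4.93% negative, 5.93% positive) and 19.9% of genes of at least 3 log2 CPM. ZNF267 had the largest value, -0.58 ± 0.13 (edgeR adjusted p = 0.000239), as its mean went from 16.7 ± 0.655 to 22.5 ± 1.82 CPM with anastrozole alone and from 20.3 ± 0.859 to 18.1 ± 0.255 CPM with anastrozole on top of E2 (SD, n = 3). ZNF217 had -0.34 ± 0.05 (edgeR adjusted p = 1.29e-07) and ZNF12 -0.34 ± 0.07 (edgeR adjusted p = 2.09e-05). ZNF143 had -0.39 ± 0.12 (edgeR adjusted p = 0.0156), with means of 23.02 ± 1.11 and 22.2 ± 0.327 CPM without E2 and 26.2 ± 0.459 and 19.2 ± 1.65 CPM with it.

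Member interactions rose with GC content at a rank correlation of 0.58, with a median of -0.16 in the low-GC group and 0.04 in the high-GC group. It was -0.15 in other expressed genes of up to 41.1% GC and 0.12 in those from 46.1%, which reach higher GC than the members. The 5 positive members, ZNF512B, ZNF444, ZNF282, ZNF316 and ZNF385A, held between 58.6% and 63.0% GC. With the offset 2 members were positive and 6 negative (2.61% of all genes). ZNF267 (-0.44), ZNF558 (-0.27), ZNF217 (-0.26), ZNF12 (-0.24) and ZNF292 (-0.18) passed in both fits, with edgeR adjusted p of 0.0188, 0.0370, 2.25e-06, 0.00394 and 0.0380 with the offset. ZNF143 was at -0.31 (edgeR adjusted p = 0.150). Without anastrozole c 56 members passed as counted (28.0%, against 15.2% of all genes), without anastrozole a 19 (7.26% of all genes), without vehicle a 20 (7.74%) and without E2 c 22 (8.51%). Without anastrozole a ZNF444 was at 0.21 (edgeR adjusted p = 0.361), ZNF282 at 0.25 (edgeR adjusted p = 0.176) and ZNF316 at 0.21 (edgeR adjusted p = 0.0503), and none of these was called.

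The members were also read by role, in lists assembled from textbook knowledge with earlier results of these data known. Of 9 genes tied to the estrogen receptor or breast cancer, 6 were members. Of these ZNF217 passed as counted with anastrozole and with E2, beside 3.67% and 12% of all genes. With the GC offset its E2 value was 0.07 and did not pass (edgeR adjusted p = 0.118), while ZNF703 did at 0.19. In the combination ZNF703 was higher and ZNF652 lower than vehicle, beside 5.04% of all genes. ZNF131, an inhibitor of estrogen receptor signalling, ZNF398, which binds the receptor, and ZNF282, a receptor coactivator, did not pass against vehicle in any treatment. ZNF282 was at 32.5, 33.2 and 32.8 CPM in vehicle, 26.7, 31.3 and 30.1 in anastrozole, 25.7, 30.7 and 29.9 in E2 and 32.8, 31.2 and 32.2 in the combination. ZNF703 varied widely between anastrozole libraries, at 55.7, 77.01 and 98.5 CPM. Its log2 fold changes of -0.28 ± 0.26 for anastrozole against vehicle and 0.48 ± 0.25 for the combination against anastrozole did not pass (edgeR adjusted p = 0.724 and 0.552). Both were larger in size than its called values, 0.20 for the combination against vehicle and 0.16 against E2. The list's median log2 fold changes with anastrozole, E2 and both were -0.05, 0.00 and -0.03.

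Of 6 promoter-binding activators, all members, ZNF148 rose and ZNF76 fell with E2 as counted. Beside them 12% of all genes and 21.5% of genes of at least 3 log2 CPM passed. ZNF143 fell with the combination against vehicle, where 5.04% and 8.39% of these genes passed. With the GC offset only ZNF143 of these 3 passed. ZNF148 was at 109, 116 and 114 CPM in vehicle and 125, 125 and 119 in E2, by 0.12 ± 0.04 as counted and 0.03 with the offset. ZNF281, a regulator of pluripotency genes, stayed between 137 and 161 CPM and passed in no comparison, and neither did ZNF384 and ZNF410.

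Among 9 members that bind RNA or act on ribosomes and mitosis, ZNF385A was lower with E2 as counted, 11.1% of the list beside 12% of all genes. None passed as counted with anastrozole or the combination against vehicle, where 3.67% and 5.04% of all genes did. ZNF207, next in abundance after ZNF664 and ZNF217, was at 207, 211 and 209 CPM in vehicle and 204, 198 and 207 in E2, with log2 fold changes of -0.04 ± 0.04 as counted and -0.14 with the offset (edgeR adjusted p = 0.520 and 0.000362). ZNF622, which matures the large ribosomal subunit, ZNF638, ZNF326, ZNF346, ZNF106 and ZNF318 passed in no comparison as counted. Of the 7 members on the list of chromatin complex partners, which does not hold ZNF335 or ZNF217, ZNF512B passed as counted. With E2 against vehicle it made up 14.3% of the list, beside 12% of all genes. ZNF687 and ZNF592, partners of ZMYND8, ZNF532, ZNF644, a partner of the G9a methyltransferase, ZNF516 and ZNF518B did not pass in any comparison as counted.

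Of 5 retroelement-binding KRAB repressors that were members, none passed with anastrozole or with E2 against vehicle, beside 3.67% and 12% of all genes. ZNF445 was higher in the combination than in vehicle, beside 5.04% of all genes. As counted ZNF91 was lower in the combination than in E2 or anastrozole alone, where 6.74% and 2.9% of all genes passed. With the offset ZNF91 was at -0.09 and -0.17 against E2 and anastrozole (edgeR adjusted p = 0.672 and 0.157). ZNF587 and ZNF417, which bind HERV-K elements, share 13.4% and 17.6% of their exon windows with other genes, so their counts are uncertain. The 19 genes of the KRAB corepressor machinery, which are not members, included 3 that rose and 2 that fell with E2 and 1 that rose with anastrozole as counted. With the offset 1 was higher and 3 were lower with E2, and the gene that rose with anastrozole no longer passed. The shares of all genes passing were 12% as counted and 7.54% with the offset for E2, and 3.67% and 2.9% for anastrozole. TRIM28 itself was at 180.6 ± 8.11 CPM in vehicle, 169 ± 7.96 in anastrozole, 171 ± 3.19 in E2 and 198 ± 2.27 in the combination (SD, n = 3), with a rise of 0.13 ± 0.04 in the combination against vehicle (edgeR adjusted p = 0.0173). Of the 19 genes it was the 1 that rose there, and CHD3, a helicase of the NuRD complex, was the 1 that fell, by 0.13 on the log2 scale (edgeR adjusted p = 0.0140), beside 5.04% of all genes that passed.

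The KRAB members were compared with the others by counts. With E2 11 of 89 KRAB members rose and 0 fell, and 14 rose and 5 fell among 107 others as counted, and after the offset 4 were higher and 3 lower among the KRAB members and 6 higher and 5 lower among the others. As counted 12.4% of KRAB members and 17.8% of the others passed with E2, against 12% of all genes. After the offset 7.87% and 10.3% did, against 7.54% of all genes. For anastrozole the medians as counted were 0.09 and 0.07. After the offset they were 0.05 and 0.04. On chromosome 19, as counted, 2 of 71 members rose with anastrozole and 7 with E2, or 2.82% and 9.86% against 3.67% and 12% of all genes, and the medians were 0.10 and 0.03, against 0.07 and 0.00 on other chromosomes. After the offset 1 of the 71 was higher with anastrozole, and 2 were higher and 1 lower with E2. These were 1.41% and 4.23%, against 2.9% and 7.54% of all genes. The medians were 0.06 and -0.01, against 0.04 and 0.01 on other chromosomes. The 322 less abundant ZNF genes that were tested had medians of 0.05 with anastrozole and 0.02 with E2 as counted, and 4 and 10 of them passed (1.24% and 3.11%). After the offset the medians were 0.04 and 0.00, and 2 and 5 passed (0.621% and 1.55%). Among 41 ZBTB genes, which join zinc fingers to a BTB domain, 2 rose with anastrozole, and 6 rose and 4 fell with E2 as counted. After the offset 3 were higher with anastrozole and 2 higher and 0 lower with E2. With anastrozole these were 4.88% and 7.32%, against 3.67% and 2.9% of all genes. The share of ZBTB genes passing with E2 was 24.4% as counted, against 12% of all genes and 21.5% of genes of at least 3 log2 CPM, and 4.88% after the offset, against 7.54% of all genes. Among 27 ZSCAN and ZKSCAN genes 2 rose with anastrozole and 1 fell with E2 as counted, or 7.41% and 3.70% against 3.67% and 12% of all genes. After the offset 2 were higher with anastrozole and 0 passed with E2, against 2.9% and 7.54% of all genes. No test was made of these lists against each other.

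Responses to one agent were set side by side over comparisons that share no library. The log2 fold changes of anastrozole without E2 and with E2 had the same sign in 64 of 200 members (32.0%), with Pearson's r of -0.39, and over 11013 expressed genes in 32.5%, with r of -0.39. With the GC offset the signs matched in 95 members (47.5%), with r of -0.09, and in 45.7% of the expressed genes, with r of -0.08. For E2 without and with anastrozole they matched in 85 members (42.5%, r of -0.10) as counted and in 109 (54.5%, r of 0.22) with the offset, and the expressed genes gave 38.5% (r of -0.16) and 53.5% (r of 0.17). These are descriptions over genes, which share the libraries' GC trends and are not independent replicates, and the part of those trends in the results as counted was not tested beyond the offset.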

How the data were processed

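The deposited file is a table of counts per gene symbol, raw and whole, which the authors made with TopHat2 2.0.14, Bowtie2 2.2.6 and HTSeq on hg19 per the submitters' processing notes and methods. The labels call the molecule polyA RNA while the protocol starts from total RNA. Genes held 32.7% to 33.5% of each library's counts, and the summary lines (no feature, 58.6% to 59.9%, not unique and ambiguous) were left out of library sizes and tests.

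Of 25370 genes, 21132 with a count were tested with edgeR 4.0.16 (quasi-likelihood, TMM, robust) in R 4.3.3 on the libraries of the groups compared, and on all 12 for the interaction, with Benjamini-Hochberg adjustment and a threshold of 0.05. Levels are TMM-normalised CPM. The SE of a log2 fold change was computed back from the F statistic of its edgeR test, so it is no separate measure of spread. The GC offset is a loess trend (span 0.5) per library of deviations against exonic GC content, estimated on genes of at least 3 log2 CPM. Alternatives were DESeq2 1.42.0 (test and size factors), limma-voom 3.58.1, library size alone, filterByExpr, 1 fit of all libraries, a replicate block and each library left out. Where DESeq2 gave no adjusted p it was left as missing. The procedure was tested on simulated data, of which no values are given here.

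GC content, exon lengths, fingers and KRAB patterns came from GENCODE 44 (GRCh37) exons and translated coding sequences, where 198 members matched by symbol and 2 by an older one. Members and lists were chosen with earlier results of these data known. Genes were named by rule: the 10 most abundant, up to 5 largest rises and falls per comparison, as counted and in both fits, the role lists, and the ends of the ranking, GC and finger counts. ZNF26, ZNF33B, ZNF440, ZNF605, ZNF737 and ZNF740 were named after their values were seen.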

Additional observations from a re-analysis of the deposited data

Results flagged for a closer look

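The response to anastrozole differed with E2 present in 34 members by the interaction term (quasi-likelihood test of edgeR, Benjamini-Hochberg adjusted), 17.0% of the members against 10.9% of all genes and 19.9% of genes of at least 3 log2 CPM, and the largest values in each direction are given here. On the log2 scale the interaction was -0.58 for ZNF267, -0.45 for ZNF441, -0.41 for ZNF25, -0.39 for ZNF143 and -0.37 for ZNF224, all lower with E2 than without. It was 0.36 for ZNF512B, 0.33 for ZNF444, 0.32 for ZNF282, 0.32 for ZNF316 and 0.22 for ZNF385A. With the GC offset 8 members passed (4.0%, against 2.61% of all genes), and ZNF267 alone of these 10 was among them. Leaving out 1 library gave 19 to 56 members as counted, beside 7.26% to 15.2% of all genes. Without anastrozole a ZNF25 was at -0.27 (edgeR adjusted p = 0.279) and ZNF444 at 0.21 (edgeR adjusted p = 0.361), while ZNF282 at 0.25 (edgeR adjusted p = 0.176) and ZNF316 at 0.21 (edgeR adjusted p = 0.0503) also lost the call. ZNF224 kept its value, at -0.37, with an edgeR adjusted p of 0.0755.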

How the results depend on the processing

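Numbers of members passing under the alternatives are given with the share of all genes tested that passed in parentheses. DESeq2's test, which leaves many genes without an adjusted p, passed 4 (3.44%) for anastrozole, 15 (14.8%) for E2 and 0 (3.03%) for the combination against vehicle, 5 (9.79%) for the combination against E2 and 4 (5.12%) against anastrozole. Limma-voom passed 0 (0.0710%), 15 (6.53%), 0 (1.64%), 6 (2.13%) and 1 (0.426%) in the same order and 22 (7.28%) for the interaction. One fit of all 12 libraries passed 13 (5.82%) for anastrozole and 9 (4.03%) for the combination against vehicle, and 8 (3.90%) for the combination against E2, and edgeR's expression filter passed 4 (2.003%) for the combination against anastrozole. The GC offset passed 18 (7.54%) for E2 against vehicle, 3 (0.880%) and 4 (2.02%) for the combination against E2 and anastrozole, 7 (2.44%) for anastrozole against E2 and 8 (2.61%) for the interaction. ZNF385A turned from a positive interaction to -0.02333 with the offset and -0.02394 with the offset and the replicate block. Same-letter deviations correlated between -0.197 and 0.184 and different-letter deviations between -0.195 and 0.217. In the combination against vehicle the same-letter values were all positive, at 0.138, 0.0690 and 0.0332, beside -0.0921 to 0.0336 for different letters. They were also all positive for the combination against anastrozole, and negative values occurred in each other comparison. Whether the letters pair the libraries was not settled. The replicate block alone passed 1 (0.852%) for anastrozole against E2 and 34 (10.5%) for the interaction. It passed 19 (6.81%) for the combination against vehicle, and 18 (7.04%) and 18 (2.93%) against E2 and anastrozole. The replicate block with the GC offset passed 18 (7.13%) for E2 and 22 (7.53%) for the combination against vehicle. It passed 3 (0.932%) and 9 (2.75%) for the combination against E2 and anastrozole, 4 (1.97%) for anastrozole against E2 and 8 (3.06%) for the interaction. Leaving out 1 library gave 4 to 25 (0.904% to 7.81%) for anastrozole, 20 to 34 (8.24% to 13.3%) for E2 and 3 to 12 (3.23% to 4.56%) for the combination against vehicle, 11 to 13 (4.19% to 5.57%) for the combination against E2, 3 to 33 (1.11% to 8.07%) against anastrozole, 0 to 6 (0.506% to 1.96%) for anastrozole against E2 and 19 to 56 (7.26% to 15.2%) for the interaction.

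Counting each call of a named member once per fit, 470 kept the threshold with a library left out and 220 did not, all in the same direction. Under the other alternatives 561 kept it, 228 lost it in the same direction and the 2 of ZNF385A above reversed and lost it. The cause was not tested. Members near 18.1 CPM rest on fewer reads than those near 331 CPM and are the more limited by depth, and 3 libraries a group limit what can be detected.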
